A study of Rattus norvegicus with 17 samples.

Results

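The left remnant kidney of rats with 1/3 nephrectomy (1/3Nx) was compared with the left kidney of sham-operated rats. All animals were male Sprague Dawley rats, a common outbred laboratory strain, fed a 0.4% Dyets chow and operated on at 10 weeks of age, and the left kidney was taken 6 weeks after surgery. In the 1/3Nx group (6 rats) 2/3 of the left kidney was excised and the right kidney stayed in place, while the sham group (5 rats) lost no tissue. A further group of 6 rats, 5/6Nx, lost the right kidney and the same share of the left one, and is used here only for values set side by side. Total RNA of each kidney was sequenced, and the authors deposited 1 expression value per group, in FPKM (mapped fragments scaled to feature length and to library size), for every feature of a gene table and an isoform table.

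A gene feature was used when it carried exactly 1 symbol and the mean of its 1/3Nx and sham values was 1 FPKM or more. This rule kept 11710 of 126306 features, under 11671 symbols; 19485 further features with 1 symbol lay below the limit. The same rule kept 10846 of 160133 isoform features. Effects are log2((1/3Nx + 0.1)/(sham + 0.1)), so a positive effect means more in 1/3Nx, and the added 0.1 FPKM makes the effects of low features smaller. The group values come without a spread between animals, so a feature is said to be called, to have risen or to have fallen only when its q-value in the authors' deposited table was under 0.05.

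The kidney filters blood in the glomerulus and recovers most of the filtrate along the tubule, and its proximal tubule is packed with mitochondria that power this transport. When nephrons are removed, those left enlarge and take over part of the work. Remnant kidneys are used to study this growth and the scarring, immune cell entry and tubular injury that can come with it.

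Libraries held 70.3 ± 9.27 M reads (SD, n = 6) in 1/3Nx and 71.4 ± 4.59 M reads (SD, n = 5) in sham. Of these reads 89.0% ± 1.16 (SD, n = 6) mapped in 1/3Nx and 87.7% ± 1.94 (SD, n = 5) in sham. Over 4 library measures the two-sided exact permutation test gave adjusted p-values of 0.421 to 0.801, and no library stood apart in its group. Without sham replicate 1 the unadjusted p was 0.0190 for the share of bases at quality 30 and above and 0.0476 for the mean quality score, both higher in 1/3Nx. All 21 kidney segment markers that had a feature were members of the gene table, from the loop of Henle gene Umod at 1943 FPKM in 1/3Nx and 2201 FPKM in sham to the podocyte gene Nphs1 at 6.30 FPKM in 1/3Nx and 6.67 FPKM in sham. Both groups thus carried the transcripts that define kidney tissue. These markers had 0 rises and 2 falls, among them that of the organic anion transporter gene Slc22a6 (277 FPKM in 1/3Nx, 485 FPKM in sham).

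Called gene features were a minority with a lean upward, which turned among members of 5 FPKM or more (300 rose, 326 fell). Of 11639 tested members 975 were called, or 8.38%, against 6.35% of all tested features with at most 1 symbol. Of these members 628 rose (5.4%) and 347 fell (2.98%). The rises were of weakly expressed features: their median level was 6.88 FPKM in 1/3Nx and 2.49 FPKM in sham, with a median effect of 1.28. The falls were of strongly expressed features, with a median of 48.3 FPKM in 1/3Nx and 86.7 FPKM in sham and a median effect of -0.84. Features past a 2-fold effect numbered 700 upward (5.98% of members, 455 of them called) and 199 downward (1.7%, 89 of them called), and 431 called features had effects under 2-fold.

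The 1 FPKM limit itself shapes these counts. A total of 463 members had under 1 FPKM in sham and passed only through their 1/3Nx value; 156 of them were called. The reverse held for 101 members with under 1 FPKM in 1/3Nx, of which 6 were called. Sham was listed at 0 for 43 members, of which 10 were called and 29 not tested, and 1/3Nx was listed at 0 for 24 members, of which 0 were called and 22 not tested. Just inside the limit stood Rfx3 at 1.07 FPKM in 1/3Nx and 0.929 FPKM in sham, and the unannotated AABR07058985.2 at 1.11 FPKM in 1/3Nx and 0.896 FPKM in sham. Just outside it stood Gzmk at 1.29 FPKM in 1/3Nx and 0.704 FPKM in sham, and Paqr4 at 1.40 FPKM in 1/3Nx and 0.599 FPKM in sham.

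Effects followed expression level through the whole table. The median effect was 0.28 for the 2222 members between 1 and 3 FPKM (208 rose, 12 fell) and 0.11 for the 3525 members between 3 and 10 FPKM (238 rose, 27 fell). It was -0.05 between 10 and 30 FPKM (107 of 3095 rose, 59 fell) and -0.16 between 30 and 100 FPKM (50 of 1835 rose, 111 fell). Above that it was -0.32 up to 300 FPKM (16 of 658 rose, 83 fell) and -0.38 beyond (9 of 375 rose, 55 fell). Over all members the median was 0.01, with quartiles of -0.28 and 0.30. For lists of strongly expressed genes the median after subtracting the median of each member's level band is therefore also given. The part of the FPKM scaling in this trend was not tested.

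**Figure D1:**
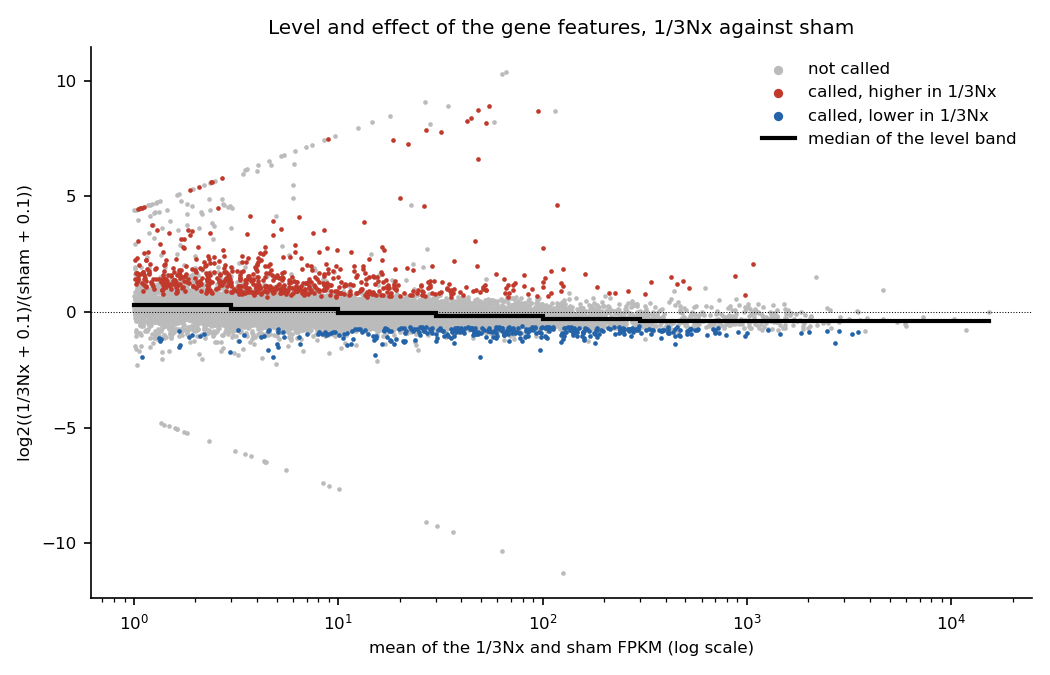
Effect of each of 11710 gene members (y axis, log2 of 1/3Nx over sham with 0.1 FPKM added) against its mean level (x axis, FPKM, log scale). Red points rose, blue points fell, grey points were not called, and black lines mark band medians, which step down with level to -0.38 at 300 FPKM or more; the straight rows of points at the upper and lower left are features listed at or near 0 in one group.

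The highest members in sham kidney were mostly genes of mitochondria, ribosomes and proximal tubule, and most of them did not pass. Mt-nd1, the mitochondrially encoded complex I gene, stood at 15405 FPKM in 1/3Nx and 15317 FPKM in sham. Gpx3, the plasma glutathione peroxidase made by proximal tubule, was at 8667 FPKM in 1/3Nx and 14904 FPKM in sham (effect -0.78), yet its q in the authors' deposited table was 0.601. Kap, an androgen-regulated proximal tubule gene, had 9223 FPKM in 1/3Nx and 11364 FPKM in sham (effect -0.30). Of the 10 highest, Mt2A alone was called: this metallothionein gene, whose product binds zinc and copper, fell to 2448 FPKM in 1/3Nx, against 4521 FPKM in sham (effect -0.89). The related Mt1 also fell, to 1519.5 FPKM in 1/3Nx against 3875 FPKM in sham (effect -1.35), though its listed interval is shared with Dclre1c. The largest gains in FPKM that were called were those of Spp1, the gene of osteopontin (1729 FPKM in 1/3Nx, 407 FPKM in sham), and Mgp, the gene of matrix Gla protein, which inhibits calcification (1309 FPKM in 1/3Nx, 442 FPKM in sham). Mgp, like other genes named by the size of their FPKM difference, was picked after the values were seen.

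Among members with at least 5 FPKM in both groups and outside the marker lists of other cells and tissues, the 12 largest rises were led by secreted defence, injury and matrix genes. Igkv6-20, an immunoglobulin light chain gene, had 225 FPKM in 1/3Nx and 9.03 FPKM in sham (effect 4.63). Its listed interval is wide, so reads of other light chain segments may enter it. Lcn2, the gene of the injury marker NGAL, had 83.6 FPKM in 1/3Nx and 9.90 FPKM in sham (effect 3.07). Slpi, which encodes a secreted inhibitor of leukocyte proteases, stood at 27.1 FPKM in 1/3Nx and 5.64 FPKM in sham (effect 2.25). Complement was represented by C7 (198 FPKM in 1/3Nx, 54.9 FPKM in sham) and C1s (36.4 FPKM in 1/3Nx, 10.3 FPKM in sham), whose interval is shared with C1r and C1rl. The matrix genes were Col6a1, Fn1 and Sparcl1, with effects of 2.00, 1.89 and 1.87. Lgals3, the gene of the carbohydrate-binding protein galectin-3, reached 76.7 FPKM in 1/3Nx against 19.2 FPKM in sham, and Cp, the gene of the copper carrier ceruloplasmin, 60.5 FPKM in 1/3Nx against 12.9 FPKM in sham. The listed interval of Cp is shared with Hps3. Havcr1, a marker gene of injured proximal tubule, is below 5 FPKM in sham and so outside this ranking, with 13.9 FPKM in 1/3Nx and 1.20 FPKM in sham (effect 3.43).

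The 12 largest falls under the same limits shared no single role. Tmem86a, which encodes an enzyme that breaks down lysoplasmalogens, fell to 20.2 FPKM in 1/3Nx against 78.1 FPKM in sham (effect -1.94). Tcea3, a transcription elongation factor gene, had 46.8 FPKM in 1/3Nx and 147 FPKM in sham (effect -1.65). Signalling precursors were among the rest: Guca2b, the gene of uroguanylin, a peptide that promotes salt excretion, had 10.4 FPKM in 1/3Nx and 26.9 FPKM in sham. Pomc, the precursor gene of corticotropin and melanocortins, had 9.11 FPKM in 1/3Nx and 23.6 FPKM in sham. Amn, the gene of amnionless, which carries cubilin to the proximal tubule surface, fell to 103 FPKM in 1/3Nx against 259 FPKM in sham (effect -1.33), while Cubn itself was at 25.8 FPKM in 1/3Nx and 29.9 FPKM in sham and was not called. Prima1, whose product anchors acetylcholinesterase in membranes, and Cacng5, of the calcium channel gamma subunit family, had effects of -1.44 and -1.35. Pgam2, Ttc36 and Hdhd3, at -1.40, -1.38 and -1.28, were also among the falls, as was Mt1.

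**Figure D2:**
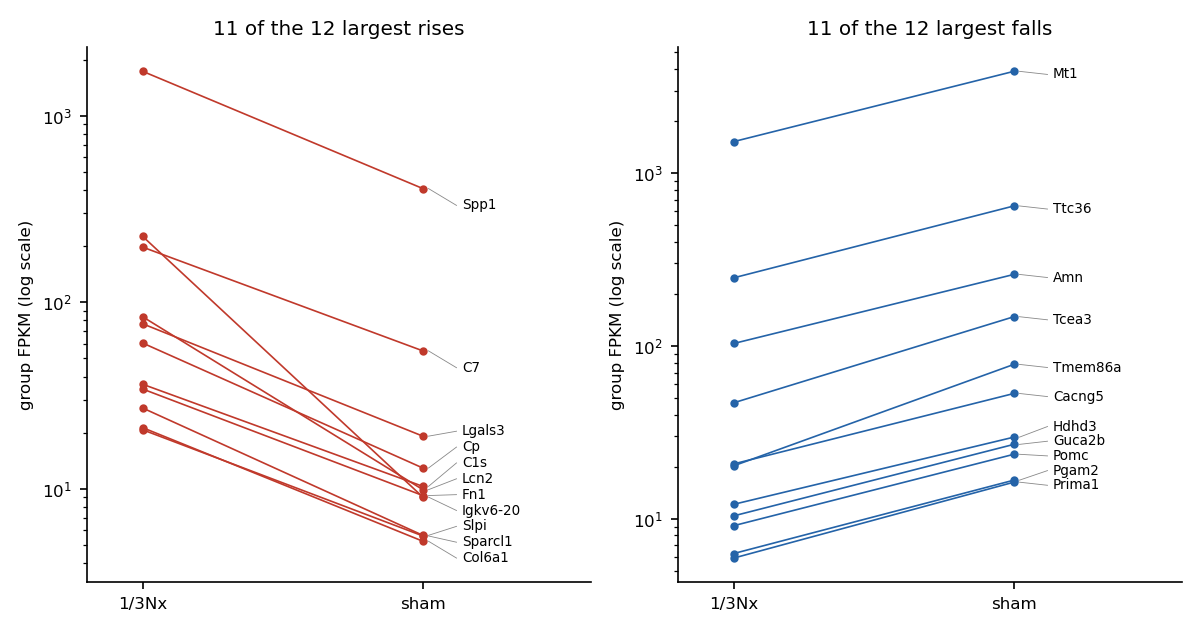
Group FPKM (log scale) of 11 of the 12 largest rises (left panel) and 11 of the 12 largest falls (right panel) among called members with at least 5 FPKM in both groups, 1/3Nx left of sham in each. Each line joins the 2 group values of 1 gene, from Spp1 at 1729 FPKM in 1/3Nx and 407 FPKM in sham to Prima1 at 5.92 FPKM in 1/3Nx and 16.3 FPKM in sham.

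Markers of connective tissue and immune cells rose in most cases. Counts of this and all later lists stand beside 5.4% of all tested members that rose and 2.98% that fell. In bulk tissue more cells of a type and more RNA per cell cannot be told apart. Of 11 fibroblast and pericyte markers 10 rose and 0 fell, with a median effect of 1.42; 7 of the 11 had at least 1 FPKM in both groups, and 6 of those rose. Postn, the gene of the fibroblast matrix protein periostin, had 5.00 FPKM in 1/3Nx and 0.126 FPKM in sham. Lum, the gene of the proteoglycan lumican, had 9.05 FPKM in 1/3Nx and 0.493 FPKM in sham. Dcn, the gene of decorin, had 170 FPKM in 1/3Nx and 49.7 FPKM in sham, and the pericyte gene Rgs5 had 21.2 FPKM in 1/3Nx and 7.28 FPKM in sham. All these are genes of cells that lay down or line matrix around tubules and vessels. Of 5 smooth muscle markers 4 rose, among them Acta2, the gene of smooth muscle actin, at 89.5 FPKM in 1/3Nx and 29.0 FPKM in sham.

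Of 13 macrophage markers 10 rose and 0 fell, with a median effect of 1.20. Mrc1, the macrophage mannose receptor gene, had 3.49 FPKM in 1/3Nx and 0.260 FPKM in sham, and Trem2, a lipid-sensing receptor gene of tissue macrophages, had 7.55 FPKM in 1/3Nx and 1.18 FPKM in sham. Lyz2, the lysozyme gene of phagocytes, had 630 FPKM in 1/3Nx and 223 FPKM in sham. Of 26 phagocyte signalling and oxidase genes 12 rose and 1 fell. The risers included Ptprc, the pan-leukocyte phosphatase gene CD45 (6.25 FPKM in 1/3Nx, 1.74 FPKM in sham), and Lcp1, the gene of the leukocyte actin bundler plastin-2 (22.3 FPKM in 1/3Nx, 7.41 FPKM in sham). The 1 fall was Cyba, the gene of the p22phox subunit of NADPH oxidases, at 307 FPKM in 1/3Nx and 560 FPKM in sham; it was picked out for its direction. The oxidase gene Cybb, which phagocytes use with it, rose to 12.5 FPKM in 1/3Nx, against 5.14 FPKM in sham.

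Of 11 lymphocyte and plasma cell markers 7 rose and 0 fell, with a median effect of 1.63. Jchain, the gene of the chain that joins polymeric immunoglobulins in plasma cells, had 50.6 FPKM in 1/3Nx and 2.03 FPKM in sham, in an interval shared with an unannotated feature. The T cell receptor complex gene Cd3g had 11.1 FPKM in 1/3Nx and 2.09 FPKM in sham. Only 6 of the 11 had at least 1 FPKM in both groups, and 3 of those rose. Of 28 chemokines and chemokine receptors 10 rose and 0 fell, with 7 rises among the 23 at 1 FPKM or more in both groups. The lymphoid chemokine genes Ccl21 (176 FPKM in 1/3Nx, 25.5 FPKM in sham) and Ccl19 (28.8 FPKM in 1/3Nx, 4.07 FPKM in sham), whose products guide T cells and dendritic cells, had the largest effects among the risers, at 2.78 and 2.79. Ccl21 is also made by lymphatic endothelium and is itself 1 of the 6 lymphatic endothelial markers. Of these 6, 4 rose, with Ccl21 counted among them. Mmrn1 (3.12 FPKM in 1/3Nx, 0.357 FPKM in sham) and the hyaluronan receptor gene Lyve1 (4.80 FPKM in 1/3Nx, 2.51 FPKM in sham) rose as well. Of the 4 lymphatic markers with at least 1 FPKM in both groups 2 rose, Ccl21 and Lyve1. Pdpn (effect 0.45) and Prox1 (effect -0.29) were not called. Of 14 blood endothelial markers 1 rose (Cdh5, the gene of VE-cadherin, 8.20 FPKM in 1/3Nx and 4.03 FPKM in sham) and 1 fell (Vwf, the gene of von Willebrand factor, 22.5 FPKM in 1/3Nx and 49.0 FPKM in sham). Effects were above 0 for 11 of the 14, with a median of 0.30 (0.36 after subtracting level-band medians). In the authors' deposited test 6 of the 14 had an unadjusted p under 0.05. Of 3 neutrophil and mast cell markers 0 were called by the authors' deposited test, and 1 had an unadjusted p under 0.05. A further 8 genes of this list lay below the limit and were left out. Among them Cma1, Mcpt1 and Cpa3 had 1.06, 1.01 and 0.914 FPKM in 1/3Nx and 0.0345, 0.0884 and 0.0153 FPKM in sham. Elane was at 0 FPKM in both groups, and the rest were higher in 1/3Nx.

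Cytokine receptors and sensors of the innate response rose in smaller numbers. Of 16 TNF superfamily genes 4 rose, but 1 of the 13 with at least 1 FPKM in both groups did; this was Tnfrsf12a, the receptor gene of TWEAK, at 25.01 FPKM in 1/3Nx and 9.42 FPKM in sham. Of 15 pattern recognition and inflammasome genes 4 rose, with the beta-glucan receptor gene Clec7a at 9.85 FPKM in 1/3Nx and 4.07 FPKM in sham and the cytokine gene Il1b at 3.96 FPKM in 1/3Nx and 1.54 FPKM in sham. None of either list fell.

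The matrix lists held chains, the enzymes that mature them and the proteases that cut them. Of 19 collagen chain genes 10 rose and 1 fell, with a median effect of 0.94; 8 of the 17 with at least 1 FPKM in both groups rose. Col1a1, the fibrillar type I chain, had 23.5 FPKM in 1/3Nx and 4.72 FPKM in sham, and Col8a1, a short-chain collagen of vessel walls, had 3.22 FPKM in 1/3Nx and 0.277 FPKM in sham. The 1 fall was Col4a4, a chain of the mature glomerular basement membrane, at 52.2 FPKM in 1/3Nx and 91.4 FPKM in sham; it was named for its direction. Of 17 collagen maturation enzymes and chaperones 7 rose and 0 fell, with 5 rises among the 15 at 1 FPKM or more in both groups. The risers cover cross-linking by Lox (2.51 FPKM in 1/3Nx, 0.597 FPKM in sham) and Loxl1 (34.9 FPKM in 1/3Nx, 16.0 FPKM in sham), removal of the amino-terminal propeptide by Adamts2 (1.88 FPKM in 1/3Nx, 0.442 FPKM in sham) and collagen binding by Sparc (251 FPKM in 1/3Nx, 120 FPKM in sham). Lox and Adamts2 passed the level limit through 1/3Nx.

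Of 11 laminin chain genes 3 rose and 0 fell, and 1 of the 9 with at least 1 FPKM in both groups rose. The list median of 0.53 turned to -0.00 among members of 5 FPKM or more. Lamb3 had 2.60 FPKM in 1/3Nx and 0.730 FPKM in sham and encodes a chain of an epithelial laminin, and Lama4, of a laminin of vessel walls, had 2.31 FPKM in 1/3Nx and 0.833 FPKM in sham. Of 21 integrin subunit genes 6 rose and 1 fell, with 3 rises among the 18 at 1 FPKM or more in both groups. Itga5, the fibronectin receptor subunit, had 2.41 FPKM in 1/3Nx and 1.08 FPKM in sham, and the 1 fall was Itga2b, the platelet subunit, at 7.61 FPKM in 1/3Nx and 14.4 FPKM in sham. Adamts1, a protease of aggrecan and versican, led the 3 risers of 12 ADAM and ADAMTS genes at 19.1 FPKM in 1/3Nx and 4.70 FPKM in sham. The 3 include Adamts2, counted above, and 2 of the 9 with at least 1 FPKM in both groups rose. Of 15 serpins, which are mostly protease inhibitors, 6 rose and 2 fell, with 5 rises among the 12 at 1 FPKM or more in both groups. Some of the risers are also counted in the liver marker and collagen maturation lists. Serpine2, which encodes an inhibitor of thrombin and plasminogen activators, had 25.1 FPKM in 1/3Nx and 7.44 FPKM in sham. Of 29 glycosaminoglycan and proteoglycan enzymes 4 rose, with Dse, a dermatan sulfate epimerase gene, at 5.50 FPKM in 1/3Nx and 2.43 FPKM in sham; the list median of 0.36 turned to -0.05 among members of 5 FPKM or more.

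**Figure D3:**
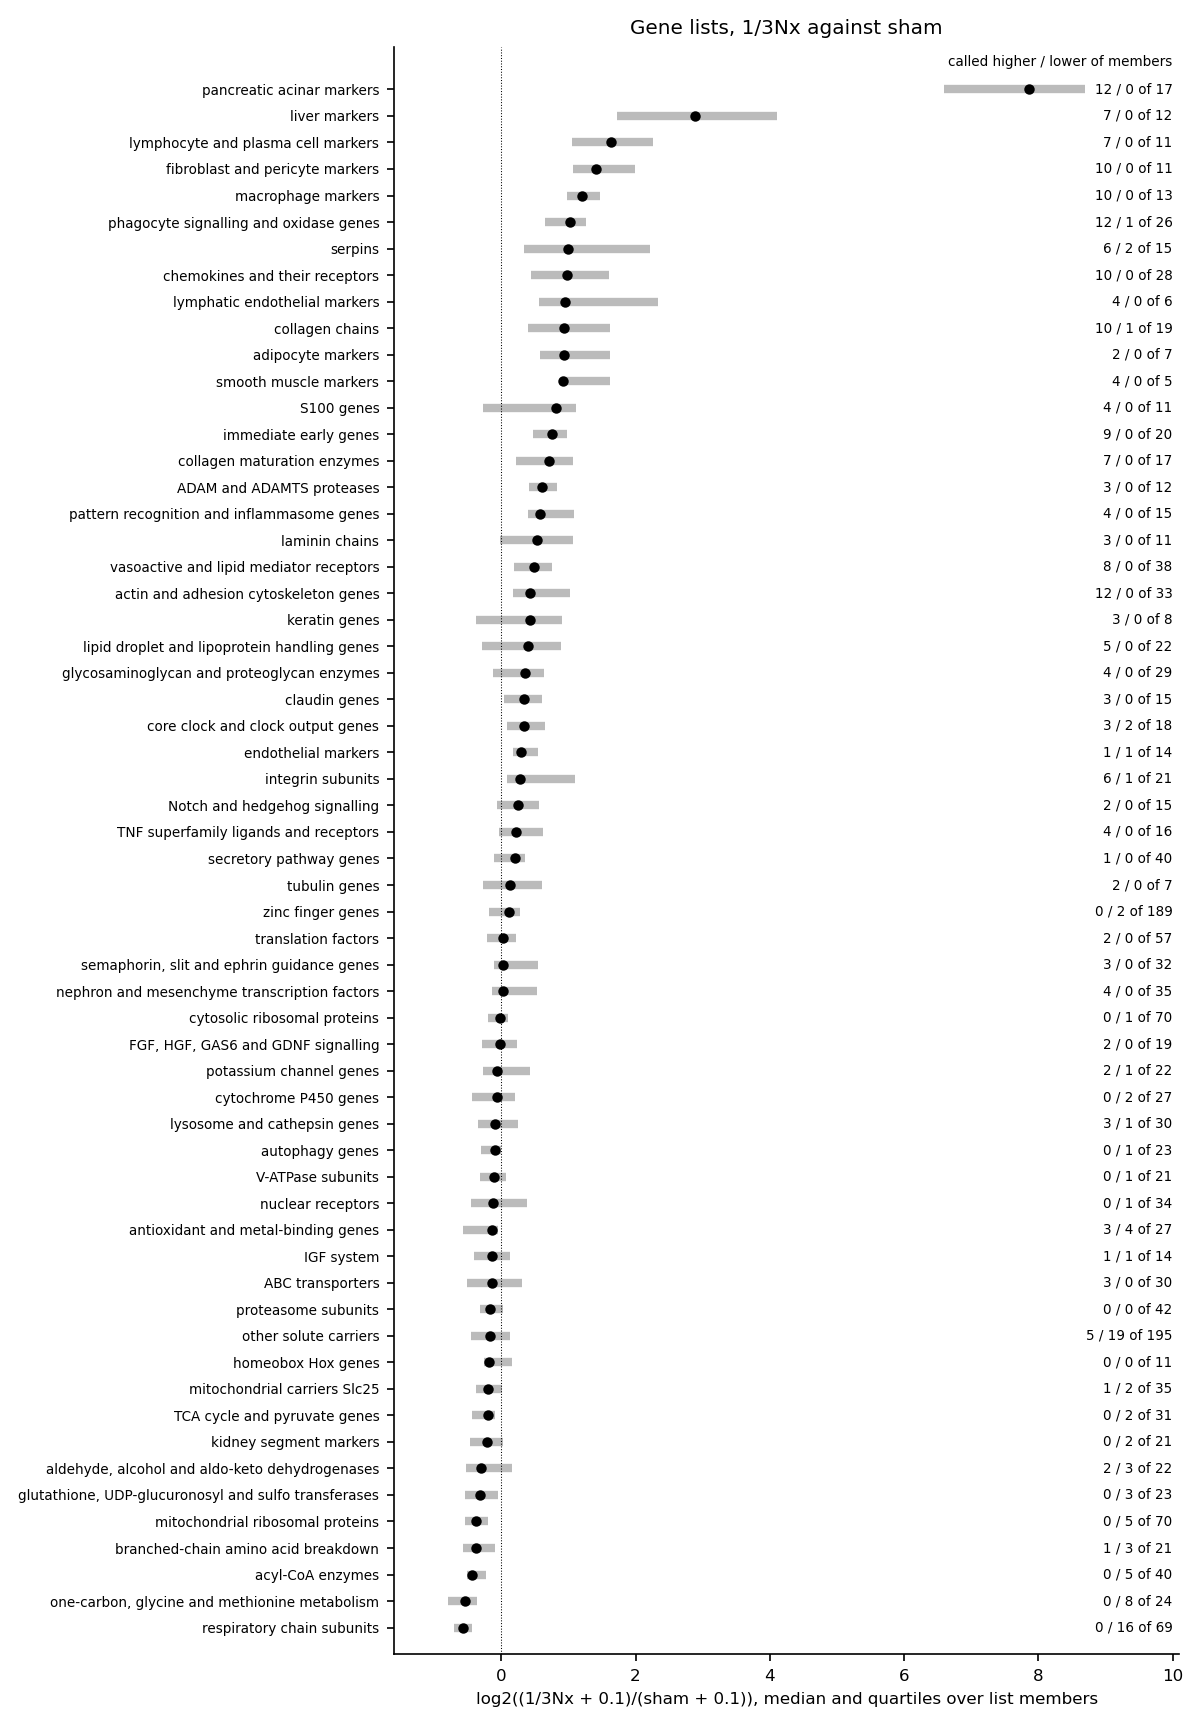
Median effect (black point) and quartiles (grey bar) of each gene list with 5 or more members, in log2 of 1/3Nx over sham with 0.1 FPKM added, with the numbers of members called higher and called lower in 1/3Nx at the right. Connective tissue and immune lists lie above 0 and mitochondrial lists below; medians of the laminin, glycosaminoglycan, Notch, semaphorin, FGF, zinc finger, lysosome, ribosomal, proteasome, autophagy, TCA cycle, V-ATPase and lipid handling lists changed sign under an alternative.

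The lists of receptors and growth signals are read against 5.4% of all tested members that rose and 2.98% that fell. Of 38 vasoactive and lipid mediator receptor genes 8 rose and 0 fell, and 33 had effects above 0. The list median was 0.49, or 0.33 after subtracting level-band medians, against 0.01 over all members. Adra1d, an alpha-1 adrenergic receptor gene of vascular smooth muscle, had 4.19 FPKM in 1/3Nx and 0.727 FPKM in sham. Ednra, the endothelin A receptor gene, had 1.77 FPKM in 1/3Nx and 0.698 FPKM in sham, and the protease-activated receptor genes F2r and F2rl1 had effects of 0.99 and 1.73. Of the 30 receptors with at least 1 FPKM in both groups 4 rose. Of 14 IGF system genes 1 rose, Igfbp6, the gene of a binding protein that favours IGF-II (15.5 FPKM in 1/3Nx, 2.17 FPKM in sham), and 1 fell, Igf2r (32.0 FPKM in 1/3Nx, 51.5 FPKM in sham). Of 19 genes of FGF, HGF, GAS6 and GDNF signalling 2 rose: Axl, a receptor gene of GAS6 (12.4 FPKM in 1/3Nx, 3.80 FPKM in sham), and Hgf, the gene of hepatocyte growth factor (4.46 FPKM in 1/3Nx, 1.97 FPKM in sham). Of 15 Notch and hedgehog genes 2 rose, Notch3 and Lfng, with 1 rise among the 14 at 1 FPKM or more in both groups. Notch3 had 1.58 FPKM in 1/3Nx and 0.601 FPKM in sham, in an interval shared with another feature. It is also counted among the fibroblast and pericyte markers. Of 32 guidance genes 3 rose, Ephb6, Nrp2 and Sema3c, with 2 rises among the 29 at 1 FPKM or more in both groups.

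Transcription factor lists split by kind. Of 20 immediate early genes 9 rose and 0 fell, with a median effect of 0.76. Fos had 7.54 FPKM in 1/3Nx and 1.71 FPKM in sham, Fosb 2.32 FPKM in 1/3Nx and 0.484 FPKM in sham, Atf3 14.6 FPKM in 1/3Nx and 4.22 FPKM in sham, and Ier3 70.2 FPKM in 1/3Nx and 35.9 FPKM in sham. These genes are switched on within minutes by growth factors and stress, tissue handling included. Of 35 nephron and mesenchyme transcription factors 4 rose (2 of them with at least 1 FPKM in both groups), among them Prrx1, a mesenchymal homeobox gene (4.39 FPKM in 1/3Nx, 1.11 FPKM in sham), and Runx1 (1.75 FPKM in 1/3Nx, 0.458 FPKM in sham). Few members of the large families were called: 0 of 189 zinc finger genes rose and 2 fell, 0 of 34 nuclear receptor genes rose and 1 fell (Rxrg, a retinoid X receptor gene, 4.08 FPKM in 1/3Nx and 8.70 FPKM in sham), and 0 of 11 Hox genes were called by the authors' deposited test, with 0 at an unadjusted p under 0.05.

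The circadian clock is a feedback loop in which Bmal1, encoded by Arntl, pairs with Clock or Npas2 to drive the Per and Cry repressors through E-boxes, and in which nuclear receptors of the Ror and Rev-erb families set Arntl through half-sites of their own. In 1/3Nx 2 genes of the driving arm fell and 3 repressor genes rose; of these 5, Npas2 had under 1 FPKM in 1/3Nx and passed the level limit through sham. Npas2 fell to 0.395 FPKM in 1/3Nx against 1.81 FPKM in sham, and Arntl to 1.16 FPKM in 1/3Nx against 2.55 FPKM in sham. Cry1 rose to 4.06 FPKM in 1/3Nx against 1.22 FPKM in sham, Per3 to 4.95 FPKM in 1/3Nx against 2.70 FPKM in sham, and Ciart, a further repressor, to 5.63 FPKM in 1/3Nx against 2.00 FPKM in sham. The other 13 clock genes were not called: the output gene Dbp was at 152 FPKM in 1/3Nx and 145 FPKM in sham, and Clock at 4.78 FPKM in 1/3Nx and 5.20 FPKM in sham. The labels give no time of day for taking the kidneys, and its part in these values was not tested. Promoters of 16 of the 18 clock members were found in RefSeq (build GRCr8, 250 bases before to 50 after the start); 4 held the E-box CACGTG, or 25%, against 6.65% of all promoters, and 2 held the nuclear receptor half-site AGGTCA on either strand, or 12.5%, against 15.7% of all promoters. Matches of these motifs can overlap by 2 bases. The stretches below are shown because 1 riser and 1 faller carry these motifs, in capitals, on the strand of the gene. Ciart lies on the minus strand at chr2:186112247-186112359 and Arntl on the plus strand at chr1:176766293-176766327, both in GRCr8.
Ciart: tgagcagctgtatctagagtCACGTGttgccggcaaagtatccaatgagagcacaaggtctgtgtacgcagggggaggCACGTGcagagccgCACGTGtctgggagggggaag
Arntl: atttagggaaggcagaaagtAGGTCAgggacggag
The Ciart stretch holds 3 E-boxes and the Arntl stretch 1 half-site; a match of letters is a description of the sequence and not a binding site.

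Mitochondrial and metabolic genes held many of the falls. The respiratory chain passes electrons to oxygen and drives ATP synthase, and 16 of its 69 nuclear-encoded subunit genes fell while 0 rose. Effects were below 0 for all but 3 of the 69, with a median of -0.56, and the summed level was 45046 FPKM in 1/3Nx and 69043 FPKM in sham. Ndufb7, of complex I, fell to 310 FPKM in 1/3Nx against 621 FPKM in sham. Uqcr11, of complex III, had 634 FPKM in 1/3Nx and 1172 FPKM in sham, and the ATP synthase genes Atp5g1 and Atp5d had 702 and 509 FPKM in 1/3Nx, against 1301 and 951 FPKM in sham. Called members thus included subunits of complex I, complex III and ATP synthase. The 3 subunits with effects above 0, Cox6a2, Cox6b2 and Cox8b, are forms known from muscle or testis and stood at 4.59, 5.22 and 6.24 FPKM in 1/3Nx and at 1.78, 3.16 and 3.63 FPKM in sham. The list is strongly expressed, and after subtracting level-band medians its median was -0.19. Of all members between 100 and 300 FPKM 12.6% fell, and 14.7% beyond.

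Promoters of 60 of these 69 genes were found in RefSeq. The half-site AGGTCA, the core that estrogen-related and other nuclear receptors bind, occurred in 20, or 33.3%, against 15.7% of all 27457 promoters. The motif of nuclear respiratory factor 1 (NRF1), read as GCGC and TGCGC with any 1 base between them, occurred in 11, or 18.3%, against 4.71% of all promoters. Both motifs were searched on both strands, and matches of one cannot overlap matches of the other. Of the 14 called subunits with a promoter 5 held the half-site and 2 the NRF1 motif. The stretches of 4 of them are shown for the sites they carry, with the motif in capitals, on the strand of the gene in GRCr8: Atp5i at chr14:1464764-1464813 (plus), Uqcrc1 at chr8:118468139-118468188 (plus), Cox5a at chr8:66818036-66818081 (plus) and Ndufb10 at chr10:14256092-14256137 (minus).
Atp5i: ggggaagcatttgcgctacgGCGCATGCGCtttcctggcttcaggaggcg
Uqcrc1: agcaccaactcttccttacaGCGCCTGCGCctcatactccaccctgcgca
Cox5a: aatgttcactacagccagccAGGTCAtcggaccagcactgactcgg
Ndufb10: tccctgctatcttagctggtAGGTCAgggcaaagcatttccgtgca
Atp5i and Uqcrc1 show the NRF1 motif, and Cox5a and Ndufb10 the half-site. All 4 genes fell, and they were picked for their motifs. Atp5i, of ATP synthase, had 2210.1 FPKM in 1/3Nx and 4299 FPKM in sham, and Uqcrc1, of complex III, had 255 FPKM in 1/3Nx and 431 FPKM in sham. Cox5a, of complex IV, had 924 FPKM in 1/3Nx and 1600.2 FPKM in sham, and Ndufb10, of complex I, had 271 FPKM in 1/3Nx and 469.6 FPKM in sham.

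Ribosomes of mitochondria and of the cytosol are built from separate sets of proteins. Of 70 mitochondrial ribosomal protein genes 5 fell and 0 rose, and 2 had effects above 0, with a median of -0.37 (-0.19 after subtracting level-band medians). Over all tested members 2.98% fell, and of all members between 30 and 100 FPKM 6.05% fell. Mrps34, of the small mitochondrial subunit, fell to 96.6 FPKM in 1/3Nx against 199 FPKM in sham, and Mrpl27, of the large one, to 116 FPKM in 1/3Nx against 202 FPKM in sham. Of 70 cytosolic ribosomal protein genes 0 rose and 1 fell, with a median of -0.02 that turned to 0.33 after subtracting level-band medians. Their summed level was 79196 FPKM in 1/3Nx and 84253 FPKM in sham. Of 42 proteasome subunit genes 0 were called by the authors' deposited test and 7 had an unadjusted p under 0.05, and their median of -0.17 turned to 0.10 under that subtraction. No test compared these lists with each other.

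**Figure D4:**
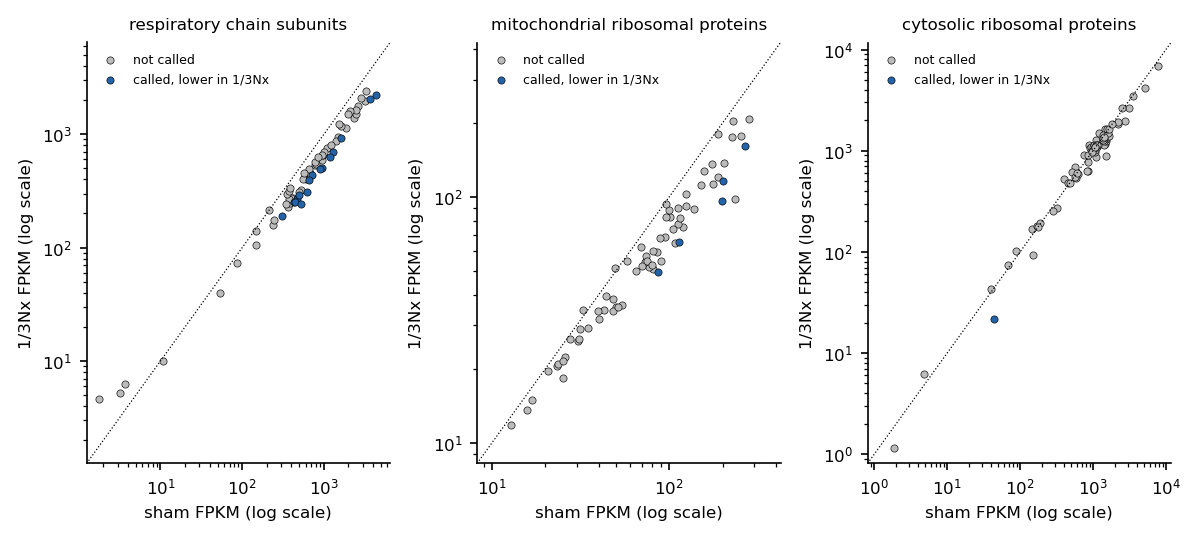
Level of each member of 3 lists in 1/3Nx (y axis) against sham (x axis), in FPKM on log scales, with the dotted line marking equal values. Respiratory chain subunits and mitochondrial ribosomal proteins lie below the line in nearly all cases (3 of 69 and 2 of 70 above it), while cytosolic ribosomal proteins lie on both sides (31 of 70 above it); blue points fell.

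Falls also occurred in other metabolic lists, against 2.98% of all tested members. That share grows with level. Of all members between 30 and 100 FPKM 6.05% fell, with 12.6% up to 300 FPKM and 14.7% beyond. Of 24 one-carbon, glycine and methionine genes 8 fell and 0 rose, with a median of -0.54 (-0.28 after subtracting level-band medians). These include the whole serine synthesis path, Phgdh (53.8 FPKM in 1/3Nx, 101 FPKM in sham), Psat1 (85.3 FPKM in 1/3Nx, 164 FPKM in sham) and Psph (31.5 FPKM in 1/3Nx, 60.6 FPKM in sham). Of 40 acyl-CoA enzyme genes 5 fell and 0 rose, among them Acads, a short-chain acyl-CoA dehydrogenase gene of fatty acid oxidation (60.3 FPKM in 1/3Nx, 106 FPKM in sham), and Ech1 (213 FPKM in 1/3Nx, 357 FPKM in sham). Of 21 genes of branched-chain amino acid breakdown 3 fell, such as Bckdha, of the branched-chain keto acid dehydrogenase (143 FPKM in 1/3Nx, 245 FPKM in sham), and 1 rose, Bcat1 (2.103 FPKM in 1/3Nx, 0.696 FPKM in sham). Bcat1 is the cytosolic transaminase of the path. Of 31 TCA cycle and pyruvate genes 2 fell, Pdk2 and Mdh2, with a list median of -0.21 that turned to 0.09 after subtracting level-band medians.

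Transport and detoxification lists held both rises and falls. Of 195 solute carrier genes outside the mitochondrial family 19 fell and 5 rose, where 2.98% of all tested members fell and 5.4% rose; their median was -0.17. Slc22a13, a urate and organic anion transporter gene, fell to 1.90 FPKM in 1/3Nx against 7.66 FPKM in sham, and Slc30a2, a zinc transporter gene, to 6.54 FPKM in 1/3Nx against 14.6 FPKM in sham. Among the 5 risers, Slc14a1, a urea transporter gene, had 5.48 FPKM in 1/3Nx and 1.81 FPKM in sham. Of 27 antioxidant and metal-binding genes 3 rose and 4 fell: Hmox1, the gene of heme oxygenase 1, was at 11.8 FPKM in 1/3Nx and 2.88 FPKM in sham, while the metallothionein genes fell as given above. Of 30 ABC transporter genes 3 rose and 0 fell, of 27 cytochrome P450 genes 0 rose and 2 fell, and of 23 glutathione, glucuronosyl and sulfo transferase genes 0 rose and 3 fell. Of 22 aldehyde, alcohol and aldo-keto dehydrogenase genes 2 rose and 3 fell, with opposite moves of Aldh1a2, which makes retinoic acid (7.17 FPKM in 1/3Nx, 2.26 FPKM in sham), and Adh6 (84.2 FPKM in 1/3Nx, 170 FPKM in sham).

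Part of the structural genes of epithelial cells and the cytoskeleton rose. Of 33 actin and adhesion cytoskeleton genes 12 rose and 0 fell, all at 1 FPKM or more in both groups, with a median of 0.43 (0.70 after subtracting level-band medians). The tropomyosin genes Tpm2, Tpm1 and Tpm4 had 94.7, 137 and 98.7 FPKM in 1/3Nx and 35.4, 63.8 and 44.2 FPKM in sham. Of 11 S100 genes 4 rose, with S100a6 at 636 FPKM in 1/3Nx and 276 FPKM in sham. Of 15 claudin genes, which seal and tune tight junctions, 3 rose, led by Cldn4 at 45.9 FPKM in 1/3Nx and 18.6 FPKM in sham. Of 8 keratin genes 3 rose, among them Krt15 (10.9 FPKM in 1/3Nx, 1.36 FPKM in sham), a keratin of basal layers in stratified epithelia. Of 30 lysosome genes 3 rose and 1 fell: Gpnmb, a gene of lipid-laden macrophages, had 25.1 FPKM in 1/3Nx and 1.62 FPKM in sham, and the list median of -0.09 turned to 0.10 after subtracting level-band medians. Of 40 secretory pathway genes 1 rose, the chaperone gene Hspa5 (342 FPKM in 1/3Nx, 180 FPKM in sham).

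Markers of tissues other than kidney were called in several lists. Of 17 pancreatic acinar markers 12 rose and 0 fell, and their summed level was 1484 FPKM in 1/3Nx and 212 FPKM in sham. The gene Cela1, which was not called, had 184 FPKM in 1/3Nx and 203 FPKM in sham, and the other 16 summed to 1299.6 FPKM in 1/3Nx and 9.09 FPKM in sham. Of the 17, 15 had under 1 FPKM in sham and passed through 1/3Nx, such as the lipase gene Pnlip at 96.1 FPKM in 1/3Nx and 0.129 FPKM in sham and the carboxypeptidase gene Cpb1 at 88.8 FPKM in 1/3Nx and 0.167 FPKM in sham. The islet list had 0 members, since 7 of its genes lay below the limit and 1 had no feature of its own. Ins1 had 1.05 FPKM in 1/3Nx and 0.0295 FPKM in sham, and Ins2, Iapp, Sst and Gcg were also higher in 1/3Nx. Chga was at 0 FPKM in 1/3Nx and 0.0338 FPKM in sham, and Ppy at 0 FPKM in both groups. Of 12 liver markers 7 rose and 0 fell, with Alb at 39.0 FPKM in 1/3Nx and 1.19 FPKM in sham; 2 of the 4 with at least 1 FPKM in both groups rose. Of 4 urothelial markers 4 rose, of 4 skeletal muscle markers 3, of 7 adipocyte markers 2 and of 3 mesothelial markers 2, while 0 of 3 red cell markers were called by the authors' deposited test (0 at an unadjusted p under 0.05) and their summed level was 317 FPKM in 1/3Nx and 314 FPKM in sham. All 3 skeletal muscle risers and 1 each of the urothelial and mesothelial risers had under 1 FPKM in sham. Since the tables hold group values, the number of animals that carried these transcripts was not analysed here, and their part in the changes of the other lists was not tested.

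Members were also set beside the 5/6Nx remnant, the sole kidney tissue of its animals. Both surgeries were compared with the same sham rats, each in a table scaled on its own, so values are given side by side and the difference between surgeries was not tested. For the respiratory chain subunits the median effect was -0.56 in the 1/3Nx table and -0.18 in the 5/6Nx table, with 3 and 26 of the 69 members above 0. After subtracting level-band medians the 1/3Nx median was -0.19. No such subtraction was made for 5/6Nx in any list, so list medians set side by side do not show a difference between surgeries. For Mt1 the effects were -1.35 for 1/3Nx and 0.30 for 5/6Nx, for Pgam2, the muscle form of phosphoglycerate mutase, -1.40 for 1/3Nx and 2.64 for 5/6Nx, and for Amn -1.33 for 1/3Nx and 0.04 for 5/6Nx. Mt1, Pgam2 and Amn were named for their large falls in 1/3Nx, so their 1/3Nx side was fixed by that choice. The kidney segment markers lay at -0.21 for 1/3Nx and -0.55 for 5/6Nx in the median. Collagen chains had medians of 0.94 for 1/3Nx and 1.04 for 5/6Nx, and macrophage markers 1.20 for 1/3Nx and 1.27 for 5/6Nx. Liver markers stood at 2.89 for 1/3Nx and 0.72 for 5/6Nx, with Alb at 4.93 for 1/3Nx and -0.08 for 5/6Nx. Pancreatic acinar markers stood at 7.85 for 1/3Nx and 7.64 for 5/6Nx. Members were set by their 1/3Nx and sham values and not by 5/6Nx. Under 1 FPKM in sham were 8 of the 12 liver members, which passed through 1/3Nx, so their higher 1/3Nx median is partly built in by the limit.

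The isoform table repeats the comparison per transcript and gave fewer calls. Of 10765 tested members 393 were called, or 3.65% (1.72% of all tested features with at most 1 symbol); 277 rose (2.57%) and 116 fell (1.08%). Of all 10846 isoform members 826 were past 2-fold upward (7.62%) and 388 downward (3.58%). Of the called isoforms 372 belong to a called gene member, 5 to a gene member that was not called and 16 to a gene with no member in the gene table. Within genes the calls bear little on direction, since 1 gene had 2 or more called isoforms. Of 1039 genes with 2 or more isoform members, 0 had isoforms called in opposite directions, and 0 had opposite effects that both reached an unadjusted p under 0.05 in the authors' deposited table. In the 32 such genes with a called isoform, all 35 uncalled sister isoforms had an effect of the same sign. Mcam, the gene of a pericyte adhesion molecule, shows the usual case: its main isoform rose to 9.95 FPKM in 1/3Nx against 3.63 FPKM in sham, the second stood at 1.59 FPKM in 1/3Nx and 0.634 FPKM in sham, and the main isoform held 86.3% of the gene in 1/3Nx and 85.1% in sham. In Serpine2 the called isoform held 84.2% in 1/3Nx and 71.6% in sham. Mcam and Serpine2 were chosen after their values were seen.

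Shares of isoforms within a gene nonetheless differed between the group values. The main isoform differed in 117 of the 1039 genes. In 893 genes with at least 5 FPKM over isoforms in both groups the median of the largest share change was 5.11 percentage points, and 61 genes changed by 20 points or more. The largest change was in Apoe, the gene of apolipoprotein E, where 1 transcript held 79.8% in 1/3Nx and 23.2% in sham and another 18.9% in 1/3Nx and 76.2% in sham. Alad, a gene of heme synthesis, had 1 transcript at 96.0% in 1/3Nx and 63.1% in sham. None of the isoforms of the 8 genes with the largest changes was called, and without values per animal the error of a share is unknown.

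**Figure D5:**
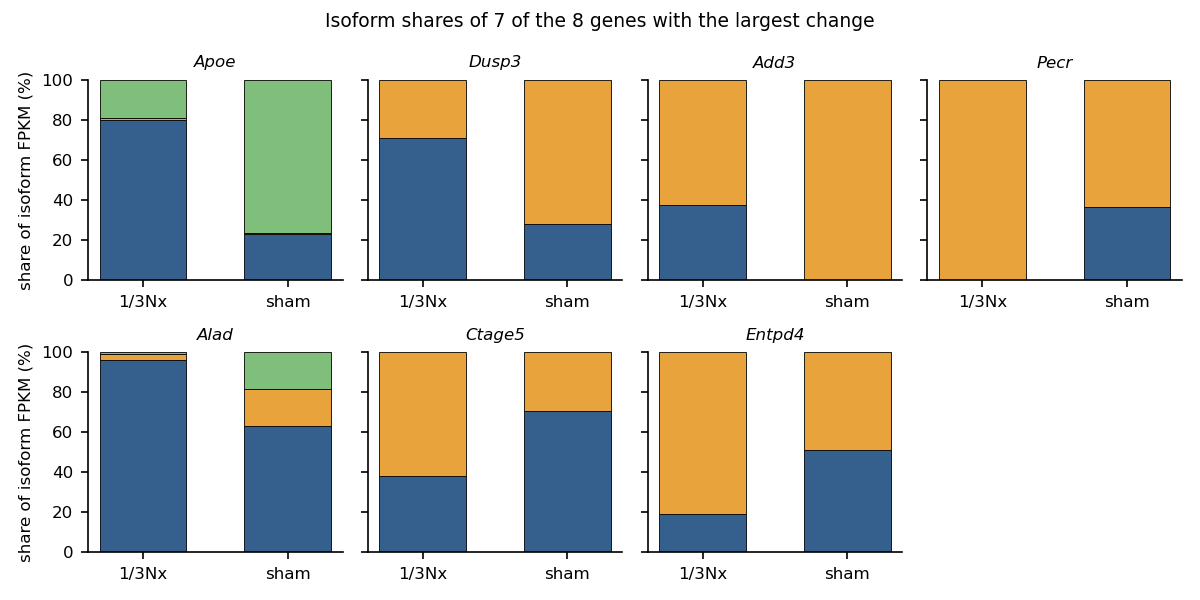
Share of the gene's isoform FPKM held by each isoform (stacked colours, percent) in 1/3Nx (left bar) and sham (right bar) for 7 of the 8 genes with the largest share change. In Apoe the lowest block covers 79.8% in 1/3Nx and 23.2% in sham; 0 of the isoforms drawn were called.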

How the data were processed

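Left kidneys of 6 1/3Nx, 6 5/6Nx and 5 sham rats were sequenced as total RNA (Trizol extraction, a TruSeq stranded kit, an Illumina HiSeq, reads from both ends), per the labels' protocols, which speak of small RNA too (not resolved here). TopHat2 2.1.1, Cufflinks 2.2.1, StringTie, cutadapt and FastQC stand in the submitters' processing notes with the build rn5, without their roles. The authors deposited, per the file headers, 1 FPKM value per group and feature, a log2 fold change, a p-value and a q-value. They also deposited read counts, percent of reads mapped, percent of bases of quality 30 and a mean quality score per library. Some sequence names belong to assemblies after rn5, so the build of the listed positions is not settled.

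Python 3.11.15 with pandas 2.3.3, SciPy 1.17.1 and matplotlib 3.10.9 was used. In the gene table, 94457 features with no symbol, 628 rows with several symbols, whose columns are shifted, and 26 with a date in place of a symbol were left out; 71 members were not tested by the authors. No library values of expression were used, so the planned reading of spread between animals is replaced by the authors' deposited q (threshold 0.05); the smallest p in the gene table is 5e-05 and the largest called is 0.0032. Without values per animal, a p-value here cannot be set against biological replicates. Library measures were compared with two-sided exact permutation tests over separate libraries. Members and 66 gene lists were chosen with earlier results of these data known. Per list, up to 4 called members with the smallest p are named, ties by larger effect; further names are marked, and some genes that this rule names are not reported here. Simulated data were used to test the Benjamini-Hochberg adjustment and the counts of opposite isoform calls and of main isoform differences. The other steps were not tested in this way. Alternatives were the added FPKM, the level limit, the q threshold, adjustment over members alone, centring and leaving out single libraries. Promoters were matched by symbol or synonym for 8970 of 11710 members (76.6%); a check of base composition over called members is void at this share and none was made.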

Additional observations from a re-analysis of the deposited data

Results flagged for a closer look

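Features with no gene symbol were outside the comparisons. Of 7349 such features tested in the gene table, 203 (2.76%) were called by the authors' deposited test, against 6.35% of all tested features with at most 1 symbol. Of these 55 (0.748% of those tested) were higher in 1/3Nx, calls outside the named genes, with a median of 1.99 FPKM in 1/3Nx and 0.455 FPKM in sham, and 148 were lower, with a median of 0 FPKM in 1/3Nx and 0.539 FPKM in sham. Sham was listed at 0 for 15 of the called features. The median listed span of the called features was 1484 bp. In 8 groups of library measures no library stood apart from the rest of its group.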

How the results depend on the processing

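Counts of calls moved most with the threshold and the level limit. At q under 0.01 the gene table had 547 calls (402 higher and 145 lower in 1/3Nx) and isoforms had 237 calls, of which 45 were lower. Among members of 5 FPKM or more the gene table had 626 calls, 300 of them higher and 326 lower. Among isoform members of that level 160 were called higher, the median effect of 0.09 turned to -0.035 and the main isoform differed in 58 genes. With Benjamini-Hochberg adjustment over isoform members alone 179 were called lower. With 1 FPKM added, 435 gene features were past 2-fold upward and 127 downward, and 476 isoforms upward; the larger added value itself shrinks effects of low features. Under the alternatives run, no named gene changed sign, but sizes moved. With 1 FPKM added the effects of 122 of 229 named genes moved by more than 0.1, and with the deposited log2 fold change 42 did. Of 65 list medians 37 moved by more than 0.1 after subtracting level-band medians. Among members of 5 FPKM or more 22 list medians moved and 36 did not. Besides the isoform median, medians of some lists changed sign: among members of 5 FPKM or more, Notch and hedgehog (-0.34), zinc finger (-0.14), lipid handling (-0.10) and semaphorin genes (-0.06), and the laminin and glycosaminoglycan lists given above. After subtracting level-band medians, an alternative chosen after seeing the data, FGF (0.02), autophagy (0.01), V-ATPase (0.08) and zinc finger genes (-0.06) changed sign, besides the lists given above. The cause was not tested.

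Leaving out each library in turn gave p-values of 0.389 to 0.976 for reads, 0.0952 to 0.429 for the percent mapped, 0.0190 to 0.457 for bases of quality 30 and 0.0476 to 0.590 for mean quality. Replicates could not be left out of the expression tables, which hold group values, and depth limits weak features in a way these values do not show. No paired analysis was possible because the tables give 1 value per group and the labels number all libraries in 1 run, with no numbers shared between groups.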

Other observations

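Lists with few calls add smaller groups of genes, beside 5.4% of all tested members that rose and 2.98% that fell. Of 22 lipid droplet and lipoprotein handling genes 5 rose and 0 fell, among them Fabp4, a fatty acid binding protein gene, at 142 FPKM in 1/3Nx and 58.2 FPKM in sham, and Lrp1, a lipoprotein receptor gene, at 3.40 FPKM in 1/3Nx and 1.67 FPKM in sham. Fabp4 is also among the adipocyte marker risers counted above. The list median of 0.39 turned to -0.10 among members of 5 FPKM or more. Of 22 potassium channel genes 2 rose and 1 fell. Kcnk1, a two-pore channel gene, had 39.7 FPKM in 1/3Nx and 22.3 FPKM in sham, Kcnn4, a calcium-activated channel gene, had 2.13 FPKM in 1/3Nx and 0.726 FPKM in sham, and Kcnj12, an inward rectifier gene, had 12.3 FPKM in 1/3Nx and 21.0 FPKM in sham. Of 35 mitochondrial carrier genes 1 rose, Slc25a24, an ATP-magnesium carrier gene (5.40 FPKM in 1/3Nx, 2.05 FPKM in sham), and 2 fell, Slc25a39 and Slc25a45.

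Of 7 tubulin genes 2 rose, Tubb6 (6.65 FPKM in 1/3Nx, 1.41 FPKM in sham) and Tubb5 (94.4 FPKM in 1/3Nx, 48.5 FPKM in sham). Of 57 translation factor genes 2 rose, Eif5a2 and Eif1a, of 23 autophagy genes 1 fell, Map1lc3a, and of 21 V-ATPase subunit genes 1 fell, Atp6v0d1. Over all tested members 5.4% rose and 2.98% fell, and calls this few say little about a list. Of 4 nerve and Schwann markers 1 rose, the myelin gene Pmp22 (10.5 FPKM in 1/3Nx, 4.25 FPKM in sham), and 1 fell, the neurofilament gene Nefm (6.83 FPKM in 1/3Nx, 12.4 FPKM in sham).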
